A study of Mus musculus with 6 samples.

Results

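The 10 genes described here, Cdkn1a, Mdm2, Ccng1, Sesn2, Phlda3, Zmat3, Aen, Eda2r, Trp53inp1 and Btg2, are widely used transcriptional targets of the tumour suppressor p53. They were taken by symbol from the deposited tables, where each had 1 Ensembl identifier, and all 10 were found among 55536 genes, of which 33296 had a count. RNA was sequenced from 6 tumour samples, which titles alone mark as separate: 3 from mice given TSDP (libraries TSDP 1, 2 and 5) and 3 from untreated mice (libraries Control 3, 4 and 5). TSDP is a nanoparticle that carries DNIC, a nitric oxide donor, and sorafenib, a kinase inhibitor used in hepatocellular carcinoma. Mice received 6 intravenous doses, the first on day 10 and the last on day 23, and were sampled on day 24. All mice were male C3H animals of 6 to 8 weeks with 1000000 cells of the mouse liver cancer line HCA-1 implanted under the liver capsule. Whether the untreated mice were given carrier without drug is not in the labels. The tumours thus grew from 1 cell line inside a host liver, and the samples are bulk tissue that can also hold host cells.

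p53 is a transcription factor that is kept scarce by the ubiquitin ligase Mdm2 and is stabilised when DNA is damaged, nucleotides run short or oncogenes are active. Its targets stop the cell cycle, feed back on p53 itself, limit growth signalling and, in some cells, start apoptosis. Several of them also answer to other factors: Sesn2 to ATF4 in the integrated stress response, and Btg2 and Cdkn1a to growth factor signals. RNA of the targets is often read as a stand-in for p53 activity, while the protein itself was not measured here.

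Between 32130808 and 38953397 reads were counted per library. Values are CPM (reads per 1000000 counted reads) after scaling by trimmed mean of M-values (TMM). Of 17423 genes in the edgeR quasi-likelihood fit, 0% were called at a Benjamini-Hochberg adjusted p under 0.05, with 2326 (13.4%, 8.6% higher and 4.75% lower in TSDP) at an unadjusted p under 0.05, and 21.8% had 3 TSDP values that did not overlap the 3 Control values. Cell type markers also differed between libraries. The 18 hepatocyte markers, 0 of them at a count of 0 in any library, summed to 33755, 64777 and 21241 CPM in TSDP 1, 2 and 5, and to 113, 24168 and 4113 CPM in Control 3, 4 and 5. Of these markers 10 were higher in every TSDP library than in every Control library, while the sums of the groups overlapped. The groups did not overlap in the sums of T cell, B and plasma cell, and endothelial markers. T cell markers were at 70.6 to 76.3 CPM in TSDP and 22.1 to 64.5 CPM in Control. B and plasma cell markers were at 13.1 to 62.9 CPM in TSDP and 1.33 to 5.54 CPM in Control. Endothelial markers were at 252 to 467 CPM in TSDP and 152 to 233 CPM in Control. Single markers without overlap were 2 of 6 T cell, 4 of 6 B and plasma cell and 2 of 5 endothelial ones, all higher in TSDP. The sums of macrophage, neutrophil, fibroblast and erythroid markers overlapped. The part of these cell types in the results was not tested. Of the 8 tumour markers, only Afp had groups that did not overlap, at 4.24 to 9.2 CPM in TSDP libraries and 3.27 to 3.68 CPM in Control libraries. The sum of the 8 overlapped, at 3082 to 8506 CPM in TSDP and 4389 to 10053 CPM in Control. Igf2 was at 0 in at least 1 library. The markers Krt8 and Krt18, keratins of hepatocytes and their tumours, were at 518 to 725 CPM in TSDP libraries and 431 to 692 CPM in Control libraries. In such tissue a change in the number of cells of a type and a change of RNA per cell cannot be told apart.

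The promoter windows of the targets are shown first, since p53 acts through a short DNA element made of a pair of half-sites. RefSeq windows on build GRCm38.p6, each from 250 bases before to 50 bases after an annotated start, were at hand for 8 of the 10 genes, all but Zmat3 and Trp53inp1. The canonical 10-base p53 half-site, searched on both strands without mismatch, was found in the windows of 4 genes, Cdkn1a, Mdm2, Ccng1 and Aen. It was in 5 of the 10 windows of the 8 genes, against 8.36% of all 32851 windows. The 5 windows printed are those with a half-site, 1 per gene, and that of Btg2, which held a cyclic AMP response element; capitals mark the matches and each sequence is written on the strand of its gene.
Cdkn1a (chr17:29090729-29091028, plus strand): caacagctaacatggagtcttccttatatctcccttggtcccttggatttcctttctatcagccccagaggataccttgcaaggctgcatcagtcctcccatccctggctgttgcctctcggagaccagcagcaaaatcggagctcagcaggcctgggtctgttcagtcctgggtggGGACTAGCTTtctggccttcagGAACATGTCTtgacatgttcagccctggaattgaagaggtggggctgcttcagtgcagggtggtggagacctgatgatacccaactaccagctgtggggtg
Mdm2 (chr10:117710709-117711008, minus strand): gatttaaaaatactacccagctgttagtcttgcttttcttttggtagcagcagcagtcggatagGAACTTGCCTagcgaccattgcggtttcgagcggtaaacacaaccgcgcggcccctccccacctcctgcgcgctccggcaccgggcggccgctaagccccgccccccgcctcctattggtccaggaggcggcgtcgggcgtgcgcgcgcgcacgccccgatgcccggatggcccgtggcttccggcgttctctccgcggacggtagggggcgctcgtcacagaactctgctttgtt
Ccng1 (chr11:40755237-40755536, minus strand): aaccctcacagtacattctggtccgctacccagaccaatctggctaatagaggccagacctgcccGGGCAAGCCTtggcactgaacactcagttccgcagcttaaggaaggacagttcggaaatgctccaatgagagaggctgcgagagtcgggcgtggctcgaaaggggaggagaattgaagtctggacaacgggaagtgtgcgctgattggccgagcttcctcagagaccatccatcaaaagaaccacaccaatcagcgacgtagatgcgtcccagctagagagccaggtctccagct
Aen (chr7:78895677-78895976, plus strand): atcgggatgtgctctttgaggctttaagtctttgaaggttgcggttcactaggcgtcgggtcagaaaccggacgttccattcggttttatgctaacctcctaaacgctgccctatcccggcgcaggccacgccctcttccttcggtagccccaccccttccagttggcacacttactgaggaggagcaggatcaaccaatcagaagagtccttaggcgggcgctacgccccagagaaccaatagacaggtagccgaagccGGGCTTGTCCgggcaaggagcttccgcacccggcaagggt
Btg2 (chr1:134079106-134079405, minus strand): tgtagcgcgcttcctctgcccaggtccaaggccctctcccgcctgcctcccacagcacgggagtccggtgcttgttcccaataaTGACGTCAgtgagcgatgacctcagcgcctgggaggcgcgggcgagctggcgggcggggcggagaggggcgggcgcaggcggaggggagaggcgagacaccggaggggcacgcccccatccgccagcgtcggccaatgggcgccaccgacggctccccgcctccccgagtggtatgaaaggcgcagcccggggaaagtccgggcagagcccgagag

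The Cdkn1a window belonged to the upstream of its annotated starts and held 2 half-sites with 12 bases between them. A pair of half-sites with at most 13 bases between them occurred in 24 of the 32851 windows, or 0.0731%. The nearer half-site, GAACATGTCT at chr17:29090928-29090937, lay 2841 bases before the downstream Cdkn1a start, in the region where p53 is known to bind this gene. The bases directly after it, TGACATGTTC, depart from the half-site at the first base alone, so the search without mismatch left them unmarked. The pair with 12 bases between is therefore the pair that this search could find, and a closer partner with a mismatch adjoins the same half-site. Mdm2 and Ccng1 each had 1 half-site, beginning 186 and 185 bases before the start. In Aen the half-site lay at position 11 of the transcript from the first start and 121 bases before the other annotated start. The cyclic AMP response element TGACGTCA of Btg2 began 166 bases before its start, and 1.79% of windows held that element. The ATF4 element TGATGNAA, held by 3.97% of windows, was in no window of the 8 genes. A match is a sequence only and says nothing of binding in these tumours.

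The 10 genes did not move as one. Log2 fold changes (TSDP over Control) were above 0 for 5 and below 0 for 5, from -0.31 to 0.70, with a median of -0.02 (-0.0151) against -0.02 (-0.0217) over all genes tested. Without Control 5, 8 were above 0, and when 1 library was left out Mdm2, Ccng1, Phlda3 and Aen each took either sign. None of the 10 passed the edgeR test (0 called, against 0% of all genes; adjusted p from 0.42 to 0.978), and 0 were at an unadjusted p under 0.05. DESeq2 called 3.38% of the genes it adjusted (2.98% higher and 0.397% lower in TSDP) and 0 of the 10. At an unadjusted p under 0.05 DESeq2 had 2 of the 10, Trp53inp1 and Btg2, both higher in TSDP, against 8.3% of genes (5.8% higher, 2.51% lower). limma-voom called 0 of the 10 and 0% of all genes, with 1, Btg2, at an unadjusted p under 0.05, against 15.2% (10.6% higher, 4.61% lower). The groups overlapped for all 10. Ratios of the TSDP mean to the Control mean ran from 1.31 to 1.62 for Cdkn1a, Sesn2, Trp53inp1 and Btg2, and from 0.808 to 1.01 for Mdm2, Ccng1, Phlda3, Aen, Eda2r and Zmat3.

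**Figure D1:**
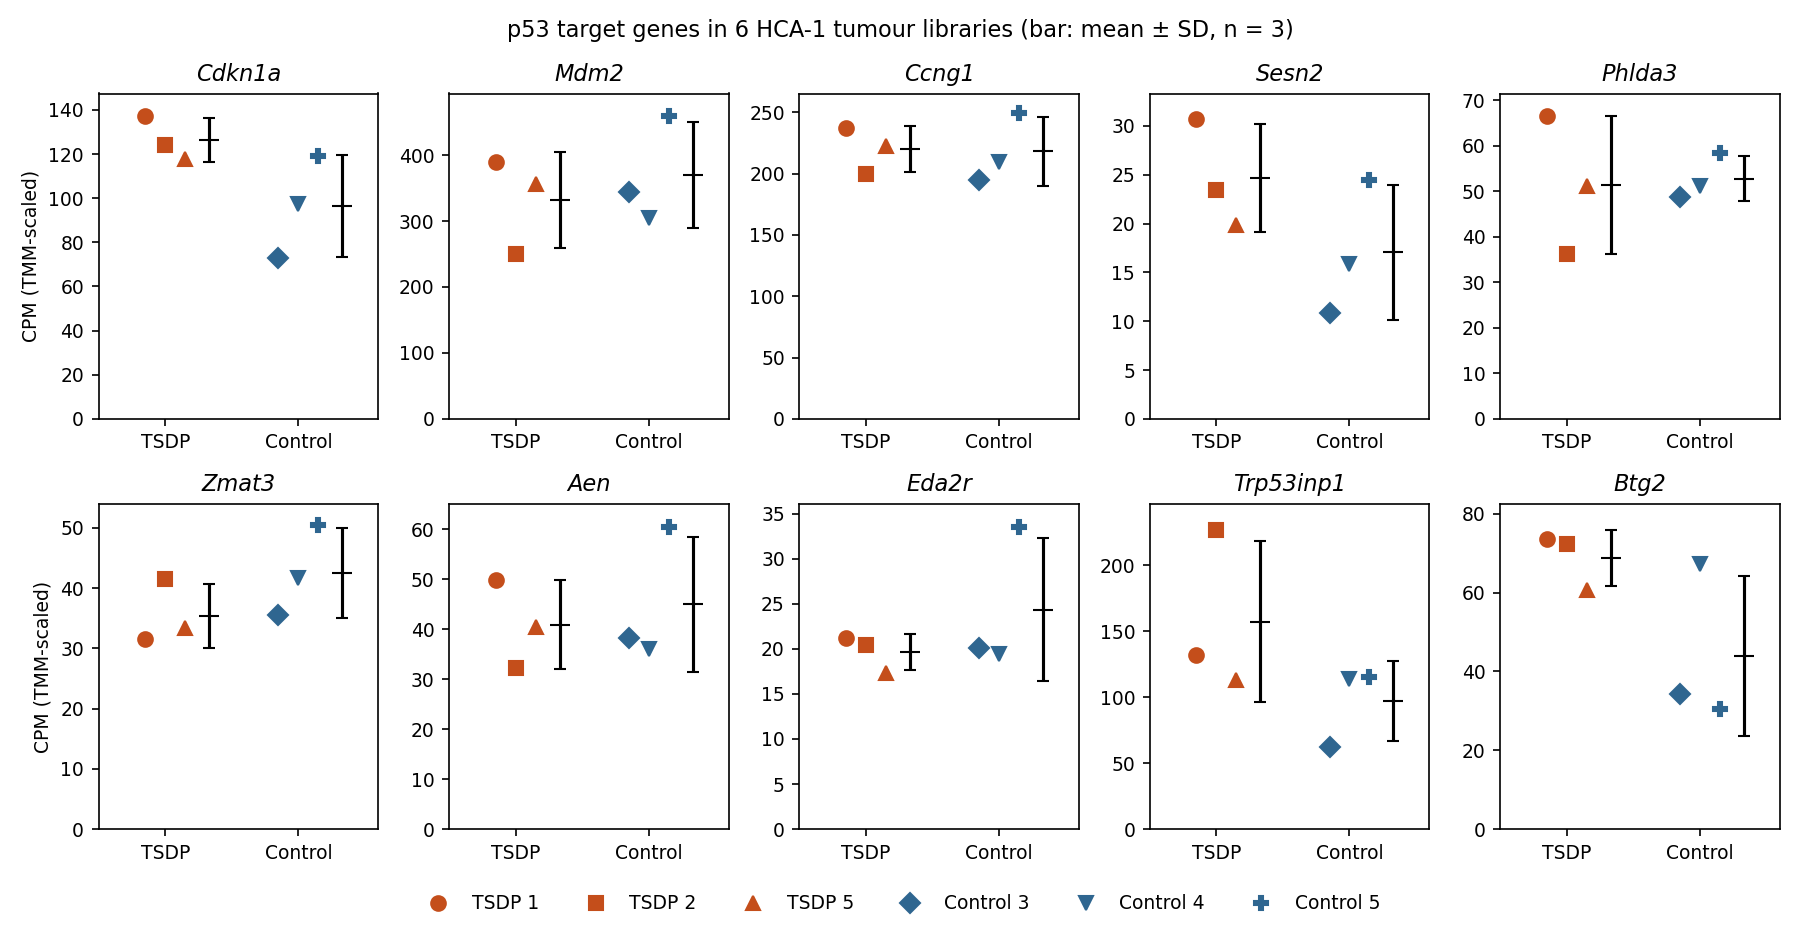
Expression of the 10 p53 target genes in each library, in CPM on linear axes that start at 0; each symbol is 1 library, and the black bar is the mean ± SD of 3 libraries. TSDP and Control values overlap in every panel, with Cdkn1a at 118 to 137 CPM in TSDP libraries and 72.7 to 119 CPM in Control libraries.

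The antiproliferative genes Cdkn1a and Btg2 had the smallest p-values of the 10 in the edgeR fit, and Trp53inp1 and Btg2 in DESeq2. Cdkn1a (ENSMUSG00000023067, chromosome 17, 29090976 to 29100727, GRCm38 as for all genes here) encodes p21, which blocks cyclin-dependent kinases and carries out the G1 arrest by p53. It stood at 137, 124 and 118 CPM in TSDP 1, 2 and 5, and at 72.7, 97.3 and 119 CPM in Control 3, 4 and 5. The TSDP libraries lay close together and above Control 3 and Control 4, while Control 5 reached the level of TSDP 5. Means were 126 ± 9.85 CPM in TSDP and 96.3 ± 23.2 CPM in Control (SD, n = 3 each), and the log2 fold change was 0.39 ± 0.19 (SE, 95% interval -0.07 to 0.86; edgeR adjusted p = 0.426). The interval thus includes changes up to 1.81-fold higher and down to 0.952-fold, and without Control 3 the estimate was 0.21. A non-coding gene on the opposite strand shares 273 of its exon bases, with 160 reads in all 6 libraries together.

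Btg2 (ENSMUSG00000020423, chromosome 1, 134075170 to 134079120), an antiproliferative partner of the CCR4-NOT deadenylase that is also an immediate early gene, was counted at 73.7, 72.2 and 60.6 CPM in TSDP 1, 2 and 5, and at 34.2, 67.2 and 30.4 CPM in Control 3, 4 and 5. All TSDP libraries and Control 4 were high, and Control 3 and Control 5 were low. The log2 fold change was 0.65 ± 0.31 (SE; 95% interval -0.10 to 1.40; edgeR adjusted p = 0.42). Without Control 4 it was 1.09 ± 0.15 with an edgeR adjusted p of 0.183, and without Control 5 it was 0.42. Of a list of immediate early genes, the fast targets of growth factor signals, 10 of 16 had log2 fold changes above 0, with a median of 0.31 (0.17 with the hepatocyte score, the mean log2 CPM of the 18 hepatocyte markers, as a covariate), and 0 were called in either direction. Fosb, a subunit of AP-1, had the smallest p among those above 0, at 47.8, 34.7 and 49.9 CPM in TSDP 1, 2 and 5 and 29.1, 23.6 and 38.1 CPM in Control 3, 4 and 5 (edgeR adjusted p = 0.372). Klf4 had the smallest p among those below 0, with means of 132 CPM in TSDP and 173 CPM in Control (adjusted p = 0.416).

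Ccng1 (ENSMUSG00000020326, chromosome 11, 40748552 to 40755311) encodes cyclin G1, which works with a phosphatase to activate Mdm2, and it was the steadiest member. Its levels were 237, 199.9 and 222 CPM in TSDP 1, 2 and 5, and 195, 209.6 and 249.7 CPM in Control 3, 4 and 5. The highest library was 1.28 times the lowest, against a median ratio of 1.75 over all tested genes with no library at 0. Its estimate, 0.01 ± 0.14 (SE) on the log2 scale with an edgeR adjusted p of 0.978, was below 0 with upper-quartile factors, total counts only, no filter on low counts or the hepatocyte score. The 95% interval was -0.33 to 0.36, so that changes beyond 1.28-fold up or 0.793-fold down lay outside it. Its relative Ccng2, which is known as a target of FOXO factors, was lower in every TSDP library, at 60.9, 62.9 and 72.85 CPM in TSDP 1, 2 and 5 and 91.2, 75.2 and 91.0 CPM in Control 3, 4 and 5 (log2 fold change -0.39 ± 0.13, edgeR adjusted p = 0.334). Such a lack of overlap held for 8.76% of tested genes in that direction, and the change of Ccng2 did not pass the test.

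The feedback loop on p53 was read from Mdm2, the ligase that removes p53 and is itself its target. Mdm2 (ENSMUSG00000020184, chromosome 10, 117688875 to 117710758) stood at 389.9, 249.96 and 357 CPM in TSDP 1, 2 and 5, and at 344, 304 and 459 CPM in Control 3, 4 and 5. The lowest value came from TSDP 2 and the highest from Control 5, and the remaining libraries of both groups lay between 304 and 389.9 CPM. The log2 fold change was -0.15 ± 0.23 (SE; 95% interval -0.72 to 0.42; edgeR adjusted p = 0.792). Trp53, the gene of p53 itself, was at 114, 82.0 and 112 CPM in TSDP 1, 2 and 5, and at 132, 97.2 and 113 CPM in Control 3, 4 and 5. Like Mdm2 it was lowest in TSDP 2, and its estimate on the log2 scale was -0.15 ± 0.18 (SE; edgeR adjusted p = 0.735), against 0.13 with the hepatocyte score, -0.02 without TSDP 2 and -0.05 without Control 3. Mdm4, a relative of Mdm2 that masks the activation domain of p53, was at 111, 129.5 and 109 CPM in TSDP 1, 2 and 5 and at 138, 132 and 148 CPM in Control 3, 4 and 5. All TSDP values were lower than all Control values, which holds for 8.76% of the genes tested, and the estimate of -0.26 ± 0.12 (SE) on the log2 scale did not pass (edgeR adjusted p = 0.398).

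Aen and Phlda3, like Mdm2, were lowest in TSDP 2, which was the lowest library for 27.7% of all tested genes. Aen (ENSMUSG00000030609, chromosome 7, 78895854 to 78911209), an exonuclease that takes part in apoptosis after DNA damage, was at 49.9, 32.1 and 40.5 CPM in TSDP 1, 2 and 5, and at 38.2, 36.1 and 60.5 CPM in Control 3, 4 and 5. Phlda3 (ENSMUSG00000041801, chromosome 1, 135766119 to 135769136), a PH domain protein that competes with AKT for membrane lipids, was at 66.6, 36.3 and 51.1 CPM in TSDP 1, 2 and 5, and at 48.7, 51.2 and 58.4 CPM in Control 3, 4 and 5. For Phlda3 both the highest and the lowest library were TSDP, and its TSDP values spread more widely (51.3 ± 15.1 CPM) than its Control values (52.8 ± 5.02 CPM; SD, n = 3 each). Log2 fold changes were -0.14 ± 0.25 for Aen and -0.04 ± 0.22 for Phlda3 (SE; edgeR adjusted p = 0.828 and 0.944).

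Eda2r and Zmat3 had the lowest fold changes of the 10. Eda2r (ENSMUSG00000034457, chromosome X, 97333840 to 97377216), a receptor of the tumour necrosis factor family that binds ectodysplasin A2, was at 21.2, 20.4 and 17.4 CPM in TSDP 1, 2 and 5, and at 20.1, 19.4 and 33.5 CPM in Control 3, 4 and 5. Only Control 5 stood apart, and without it the log2 fold change was -0.02 instead of -0.31 ± 0.24 (SE; edgeR adjusted p = 0.587). Zmat3 (ENSMUSG00000027663, chromosome 3, 32334792 to 32366014), a zinc finger protein that binds RNA and acts on splicing, was at 31.5, 41.5 and 33.3 CPM in TSDP 1, 2 and 5, and at 35.6, 41.7 and 50.4 CPM in Control 3, 4 and 5. TSDP 1 and TSDP 5 lay below all Control libraries, and TSDP 2 lay among them. Its log2 fold change was -0.26 ± 0.17 (SE; 95% interval -0.68 to 0.15; edgeR adjusted p = 0.523).

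Trp53inp1 and Sesn2, the autophagy and stress members, had the widest spread over libraries. Trp53inp1 (ENSMUSG00000028211, chromosome 4, 11156431 to 11174379), which promotes autophagy and activates p53 through its kinases, was at 132, 227 and 113 CPM in TSDP 1, 2 and 5, and at 62.0, 114 and 116 CPM in Control 3, 4 and 5. TSDP 2 was highest and Control 3 lowest, a ratio of 3.66, while TSDP 5 lay just under Control 4 and Control 5. The log2 fold change of 0.70 ± 0.35 (SE; 95% interval -0.14 to 1.54; edgeR adjusted p = 0.433) became 0.32 without TSDP 2 and 0.44 without Control 3. At the extremes its libraries were those of hepatocyte RNA, with the most in TSDP 2 and the least in Control 3. Such extremes were common, with TSDP 2 highest for 31.3% and Control 3 lowest for 26.6% of all tested genes. Among Control 4, Control 5 and TSDP 5 the order of Trp53inp1 was not that of hepatocyte RNA. Sesn2 (ENSMUSG00000028893, chromosome 4, 132492032 to 132510501), which encodes sestrin 2, a leucine sensor that restrains mTORC1, was at 30.7, 23.4 and 19.8 CPM in TSDP 1, 2 and 5, and at 10.8, 15.9 and 24.4 CPM in Control 3, 4 and 5. Control 5 again reached into the TSDP range, and the log2 fold change was 0.53 ± 0.32 (SE; 95% interval -0.25 to 1.31; edgeR adjusted p = 0.495). Its estimate was 0.27 without Control 3, 0.34 without TSDP 1 and 0.86 without Control 5. The ATF4 targets, which include Sesn2, showed 6 of 15 members above 0 with a median of -0.08 and 0 called in either direction. With the hepatocyte score that median was 0.12. Chac1, a glutathione-degrading enzyme induced by ATF4, averaged 7.97 ± 3.28 CPM in TSDP and 4.94 ± 1.52 CPM in Control (SD, n = 3 each; edgeR adjusted p = 0.449). Ddit4, an mTORC1 inhibitor that p53, hypoxia and ATF4 all induce, was lower in every TSDP library, as for 8.76% of tested genes. It averaged 45.1 ± 9.35 CPM in TSDP and 62.9 ± 3.48 CPM in Control (SD, n = 3 each; edgeR adjusted p = 0.338).

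The largest positive estimates of the 10 genes, those of Trp53inp1, Btg2, Sesn2 and Cdkn1a, shrank when the hepatocyte score was in the fit. The log2 fold change of Trp53inp1 was then 0.08 ± 0.32, that of Btg2 0.23 ± 0.31, that of Sesn2 0.12 ± 0.39 and that of Cdkn1a 0.11 ± 0.21 (SE; edgeR adjusted p of 0.989, 0.95, 0.985 and 0.969). Those of Mdm2, Phlda3 and Aen stayed between -0.16 and -0.05. The estimates of Zmat3 and Eda2r were lower with the covariate, at -0.48 ± 0.21 and -0.43 ± 0.33 (SE; adjusted p = 0.879 and 0.911). The score was 9.55, 10.5 and 8.91 in TSDP 1, 2 and 5, and 1.14, 8.71 and 6.39 in Control 3, 4 and 5. Unlike the summed CPM, it was thus higher in every TSDP library than in every Control library, and Control 3 lay far below the rest. Because the score differs between the groups as well as within them, treatment and hepatocyte content cannot be told apart for these genes.

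**Figure D2:**
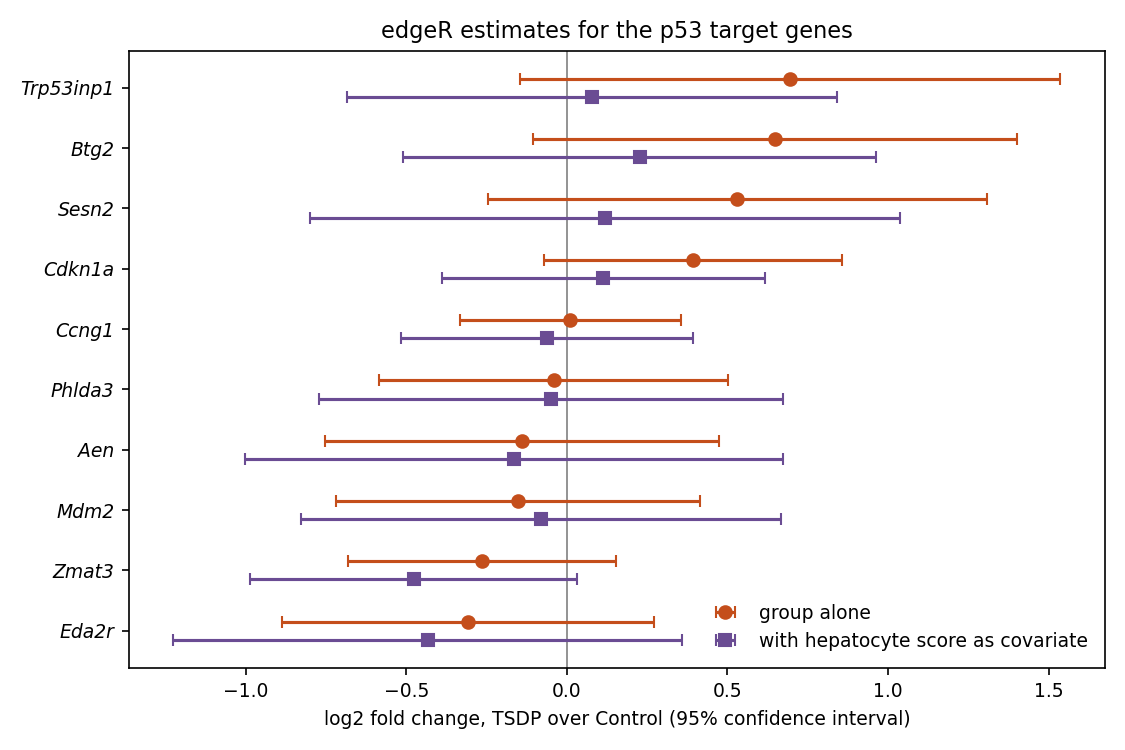
Log2 fold changes of the 10 genes (TSDP over Control, x axis) with 95% confidence intervals from edgeR, with group alone (circles) and with the hepatocyte score added (squares). With group alone every interval crosses 0, and the estimates of Trp53inp1, Btg2, Sesn2 and Cdkn1a lie between 0.39 and 0.70, against 0.08 to 0.23 with the score.

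Libraries of the same group differed among themselves. The median ratio of the highest to the lowest library was 1.89 for the 10 genes, against 1.75 for all tested genes with no library at 0. Control 5 was the highest library for 5 members, Mdm2, Ccng1, Zmat3, Aen and Eda2r, and it was highest for 16.2% of all tested genes. Compared with Control 3, which is also untreated, 9 of the 10 genes were higher in Control 5, Btg2 being the exception, with a median ratio of 1.5. Of all tested genes 51.9% were higher in Control 5 than in Control 3, and the median ratio was 1.01. Among TSDP libraries 8 of the 10 were higher in TSDP 1 than in TSDP 2, all but Zmat3 and Trp53inp1, against 45.9% of all tested genes. These pairs of libraries were picked after the values had been seen, and no test was made of them. TSDP 2 also had the most hepatocyte marker RNA and the lowest sum of the tumour markers, 3082 CPM, against 10053 CPM in Control 5, most of it from Spp1, which encodes osteopontin. The part of cell content in these differences was not tested.

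**Figure D3:**
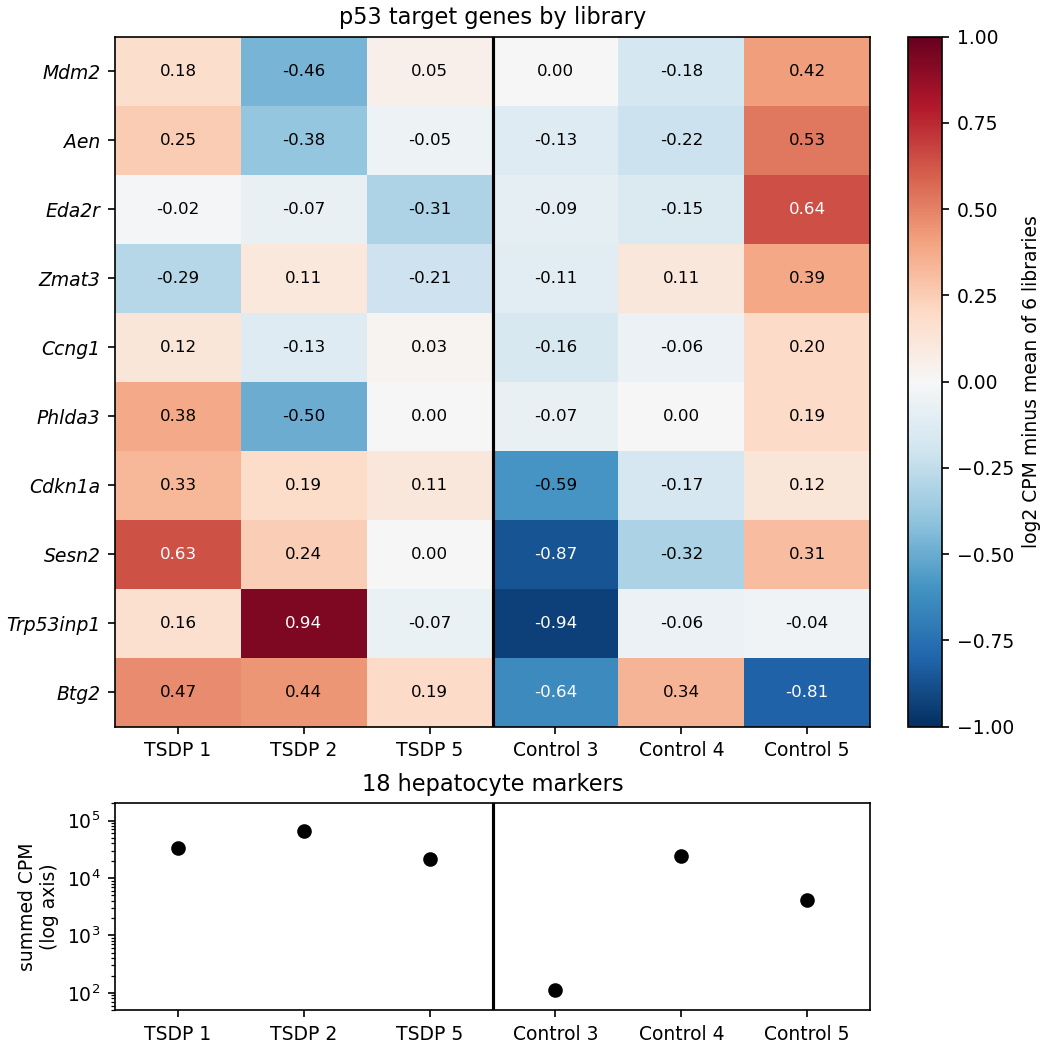
Upper panel: log2 CPM of each gene minus its mean over the 6 libraries, by library, with TSDP left of the black line and Control right of it. Lower panel: summed CPM of 18 hepatocyte markers on a log axis; Mdm2, Aen, Eda2r, Zmat3 and Ccng1 are highest in Control 5, while Cdkn1a, Sesn2, Trp53inp1 and Ccng1 are lowest in Control 3, which has 113 CPM of hepatocyte markers.

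Set against gene length, the 10 genes covered a wide range of levels. In FPKM, here the CPM value per kilobase of exon with exon lengths from GENCODE M21, Mdm2 averaged 65.4 ± 14.4 in TSDP and 72.6 ± 15.8 in Control, and Ccng1 62.6 ± 5.37 in TSDP and 62.1 ± 8.06 in Control (SD, n = 3 each); these 2 did not differ beyond their spread. Cdkn1a followed at 35.6 ± 2.77 FPKM in TSDP and 27.1 ± 6.52 FPKM in Control, and Phlda3 at 32.9 ± 9.71 FPKM in TSDP and 33.9 ± 3.22 FPKM in Control. Btg2 averaged 25.1 ± 2.61 FPKM in TSDP and 16.0 ± 7.38 FPKM in Control, and Trp53inp1 24.3 ± 9.40 FPKM in TSDP and 15.01 ± 4.71 FPKM in Control. Sesn2 was lower, at 7.09 ± 1.597 FPKM in TSDP and 4.90 ± 1.98 FPKM in Control, as was Aen, at 7.04 ± 1.53 FPKM in TSDP and 7.75 ± 2.33 FPKM in Control. The lowest were Eda2r, at 3.34 ± 0.345 FPKM in TSDP and 4.13 ± 1.35 FPKM in Control, and Zmat3, at 3.10 ± 0.463 FPKM in TSDP and 3.72 ± 0.653 FPKM in Control. Within their SD, Cdkn1a overlapped Phlda3, Btg2 overlapped Trp53inp1, Sesn2 overlapped Aen and Eda2r overlapped Zmat3 in both groups. Phlda3 overlapped Btg2 in TSDP but not in Control libraries. Exons of all isoforms enter these lengths, so genes with long alternative exons read low.

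Other genes of the pathway were read from lists. Of 34 further p53 targets all were tested, 16 with log2 fold changes above 0 and 18 below, with a median of -0.02, against -0.02 over all genes, and 0 called in either direction. At an unadjusted p under 0.05 there were 3 higher (Plk3, Perp and Ei24) and 3 lower (Rrm2b, Apaf1 and Pvt1), against 8.6% and 4.75% of all genes. For the apoptosis genes Bax, Bbc3 and Fas the groups overlapped. Bax, the pore-forming effector, was at 26.2, 24.1 and 24.4 CPM in TSDP 1, 2 and 5 and at 21.7, 26.7 and 25.9 CPM in Control 3, 4 and 5 (log2 fold change 0.01 ± 0.12, edgeR adjusted p = 0.983). Bbc3, which encodes the BH3 protein PUMA, averaged 6.05 ± 0.715 CPM in TSDP and 6.51 ± 1.95 CPM in Control (SD, n = 3 each; adjusted p = 0.874). The death receptor gene Fas was at 9.26, 17.1 and 7.45 CPM in TSDP 1, 2 and 5 and at 3.09, 10.2 and 4.45 CPM in Control 3, 4 and 5. Like the hepatocyte markers it was highest in TSDP 2 and lowest in Control 3, with a log2 fold change of 0.93 ± 0.52 (adjusted p = 0.469), or 0.04 ± 0.41 with the hepatocyte score (SE).

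Gdf15, a secreted stress cytokine, averaged 10.1 ± 2.07 CPM in TSDP and 7.39 ± 2.81 CPM in Control (SD, n = 3 each; edgeR adjusted p = 0.535), and Sesn1, the sestrin most tied to p53, 17.7 ± 5.43 CPM in TSDP and 18.9 ± 7.26 CPM in Control (adjusted p = 0.916). The smallest p on the list in each direction belonged to Ei24 and Pvt1. Ei24, an endoplasmic reticulum protein of the autophagy pathway, was at 72.5, 95.04 and 57.3 CPM in TSDP 1, 2 and 5 and at 39.4, 54.1 and 44.4 CPM in Control 3, 4 and 5, so that the groups did not overlap, as for 13% of tested genes in that direction. The non-coding RNA gene Pvt1 was at 12.3, 10.5 and 12.6 CPM in TSDP 1, 2 and 5 and at 17.5, 14.0 and 18.6 CPM in Control 3, 4 and 5. Its groups did not overlap either, as for 8.76% of tested genes in that direction. Neither passed the test (log2 fold changes of 0.71 ± 0.22 and -0.50 ± 0.16, SE; edgeR adjusted p = 0.334 for both).

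Most regulators of p53 had negative estimates. Of 20 listed genes 19 were tested, all but Trp73, of which 16 were below 0 and 3 above, with a median of -0.26 against -0.02 over all genes, and 0 were called in either direction. The groups did not overlap for 5, all lower in TSDP, Mdm4, Ep300, Crebbp, Kat5 and Hipk2, against 8.76% of tested genes in that direction. Ep300, an acetyltransferase that modifies p53 and histones, was at 113, 109 and 118 CPM in TSDP 1, 2 and 5, and at 173, 129.0 and 161 CPM in Control 3, 4 and 5 (log2 fold change -0.45 ± 0.14, edgeR adjusted p = 0.334). Its estimate with the hepatocyte score was -0.22 ± 0.15 (SE), and the median of the list was then -0.10. Cdkn2a, whose ARF product inhibits Mdm2, was counted with 7 to 25 reads per library, at 0.548, 0.722 and 0.307 CPM in TSDP 1, 2 and 5 and at 0.216, 0.583 and 0.423 CPM in Control 3, 4 and 5 (adjusted p = 0.759).

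Downstream of p21, no cell cycle gene was called, against 0% of all genes tested with edgeR, so the lack of calls is not particular to them. Of 17 genes of the G1 cyclins, their kinases and inhibitors 5 were above 0 and 12 below, with a median of -0.16, against 0.08 with the hepatocyte score. Cdk6, a kinase of cyclin D, averaged 109 ± 5.49 CPM in TSDP and 133 ± 14.5 CPM in Control (SD, n = 3 each; edgeR adjusted p = 0.38). Its groups did not overlap, as for 8.76% of tested genes in that direction. Cdkn1c, the gene of p57 and a relative of Cdkn1a, was at 0.329, 3.21 and 0.307 CPM in TSDP 1, 2 and 5 and at 0.0309, 0.368 and 0.0994 CPM in Control 3, 4 and 5; TSDP 2 alone stood apart. The 20 mitotic and replication genes that p21 represses through the DREAM complex had 7 estimates above 0 and 13 below, from -0.36 to 0.15, with a median of -0.02, and 0 were called. With the hepatocyte score the median of these genes was 0.25, against 0.00305 over all genes tested. Aurka, a mitotic kinase, averaged 39.7 ± 7.10 CPM in TSDP and 35.8 ± 4.62 CPM in Control, and Cdc25a, a phosphatase that activates cyclin-dependent kinases, 16.9 ± 1.52 CPM in TSDP and 20.2 ± 2.84 CPM in Control (SD, n = 3 each; adjusted p = 0.711 and 0.485).

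**Figure D4:**
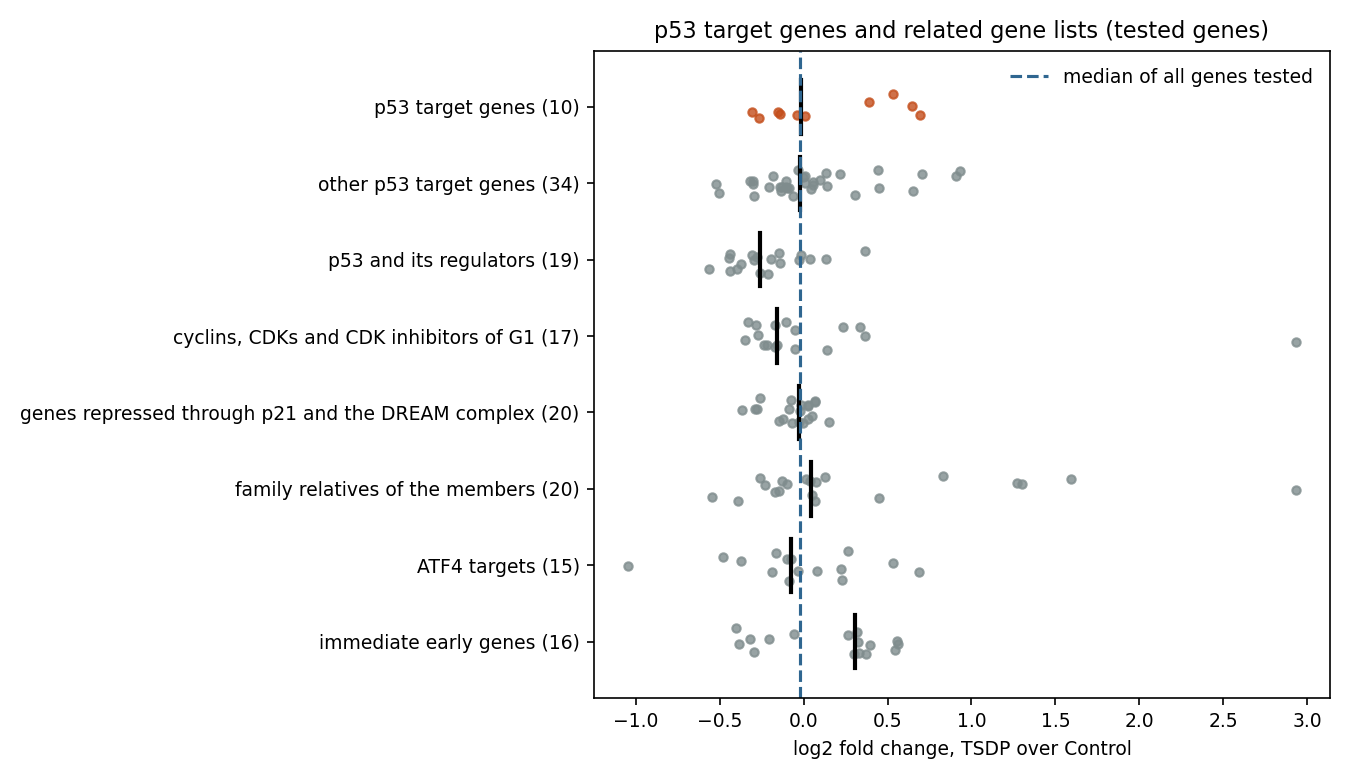
Log2 fold changes (TSDP over Control, x axis) of the tested genes of each list, 1 dot per gene, with the list's median as a black bar and the number tested in brackets; vertical scatter has no meaning. The medians of the p53 target genes (-0.0151) and of other p53 targets (-0.0204) lie beside the dashed median of all tested genes (-0.0217), and that of p53 and its regulators at -0.26.

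Among family relatives of the 10 genes, such as other sestrins and B-cell translocation genes, 12 of 20 tested genes had estimates above 0 and 8 below, with a median of 0.04 (-0.04 with the hepatocyte score) and 0 called. The smallest p belonged to Trp53inp2, a relative of Trp53inp1 that acts in autophagosome formation. It stood at 145, 241 and 105.8 CPM in TSDP 1, 2 and 5, and at 41.3, 74.7 and 47.2 CPM in Control 3, 4 and 5. Every TSDP library was above every Control library, as for 13% of tested genes. The log2 fold change was 1.59 ± 0.37 (SE; edgeR adjusted p = 0.326). DESeq2 called this gene (adjusted p = 0.00108). It was the only one called among the 133 genes that DESeq2 adjusted of the 136 in the 7 related lists. Over all genes it adjusted, DESeq2 called 3.38% (2.98% higher in TSDP). With the hepatocyte score the estimate was 1.06 ± 0.39 (SE; edgeR adjusted p = 0.835), and TSDP 2, with the most hepatocyte RNA, was again highest.

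Likeness to the profiles of Cdkn1a and Mdm2 was read from Pearson's r of log2 CPM, given as a description over 6 points, the libraries. Genes without a symbol or with predicted, clone or pseudogene names were passed over, and the 3 most alike of the rest are given. For Cdkn1a these were Tmem101 (r = 0.993), Dcstamp (r = 0.990) and Abt1 (r = 0.990), and all 3 shared its highest library, TSDP 1, and its lowest, Control 3. For Mdm2 they were Cyb5r1 (r = 0.994), Ripk2 (r = 0.990) and Adgre5 (r = 0.989), each highest in Control 5 and lowest in TSDP 2. With the genes passed over counted in, an r over 0.95 was held by 75 genes (0.43%) with Cdkn1a and by 101 genes (0.58%) with Mdm2. None of the other 9 p53 targets was among the 3 most like either gene, which does not mean that none was close. Sesn2 shared the highest and lowest library of Cdkn1a, TSDP 1 and Control 3. Aen shared those of Mdm2, Control 5 and TSDP 2.

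Fold changes were then set beside the promoter matches. Genes with a half-site in the window, Cdkn1a, Mdm2, Ccng1 and Aen, had log2 fold changes of 0.39, -0.15, 0.01 and -0.14. Those with a window and no half-site, Sesn2, Phlda3, Eda2r and Btg2, had 0.53, -0.04, -0.31 and 0.65. The ranges overlapped, with 4 genes on each side.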

How the data were processed

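The submitters' processing notes name featureCounts 2.0.0, HISAT2 2.1.0, Trimmomatic 0.38, MultiQC, FastQC and CASAVA, with no roles. The genome build and the strand setting were not given in the sources used here. The authors deposited whole read counts for 55536 genes, whose identifiers are those of GENCODE M21 (GRCm38) without exception, so positions and exon lengths come from that release. The deposited normalized signal is each count over a constant of its library (relative departure at most 5.1e-15) and supplied symbols alone. No column belonged to another sample.

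The members and lists were chosen with earlier results of these data known. The test was run in R 4.3.3 with edgeR 4.0.16, using filterByExpr at a minimum count of 10, TMM factors, legacy quasi-likelihood and Benjamini-Hochberg adjustment over 17423 genes at 0.05. An SE is the size of the log2 estimate over the root of F. DESeq2 1.42.0, limma 3.58.1 (voom), other scaling and filters, a hepatocyte covariate (log2 CPM with a prior count of 2) and leaving out each library were alternatives. For 14930 counted genes the DESeq2 adjusted p was missing, and they were left out. The steps were tested on simulated data. Only titles mark the replicates as separate samples, so p-values reflect the spread between these libraries, which may be technical. No pair of libraries matched within counting noise (smallest chi-square per gene 42.8). Named genes were the members, 8 genes in every case, the smallest p of each list in each direction, and the 3 most like Cdkn1a and Mdm2. For those 3, genes without a symbol or with predicted, clone or pseudogene names were left out. Other genes behind counts of 5 or fewer were named after their values were seen. As the strand setting was not given, it is not known whether reads of overlapping genes on opposite strands were kept apart.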

Additional observations from a re-analysis of the deposited data

How the results depend on the processing

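The p53 target genes past the threshold numbered 0 with all 15 alternatives. The main fit called 0 of 17423 genes, and the fit without a filter on low counts 1 of 33296. DESeq2 called 620 of the 18366 genes it adjusted (547 higher, 73 lower). Of the 136 related genes, 133 of them tested, the main fit called 0 and DESeq2 called 1, Trp53inp2 (log2 fold change 1.58). Members with estimates above 0 numbered 5, and 4 to 8 when 1 library was left out: 8 without Control 5 and 7 without TSDP 2. Of 150 pairs of member and alternative 138 kept their direction and 12 turned, across Mdm2, Ccng1, Phlda3 and Aen. When 1 library was left out, Mdm2 ranged from -0.28 to 0.022, Ccng1 from -0.080 to 0.10, Phlda3 from -0.27 to 0.15, Aen from -0.31 to 0.12, Bax from -0.096 to 0.063, Bbc3 from -0.31 to 0.13 and Sesn1 from -0.39 to 0.24. With upper-quartile factors Ccng1 was at -0.059 and Bax at -0.064, with total counts only at -0.054 and -0.060, and without a filter at -0.0073 and -0.014. Bax was at -0.00067 with DESeq2, -0.00085 with RLE factors and -9.4e-05 with the filter of over 1 CPM in 3 libraries. With the hepatocyte score Ccng1 was at -0.063, Trp53 at 0.13, Bax at -0.15, Cdkn2a at -0.45 and Cdkn1c at -0.011. The cause was not tested. Cdkn1a, Sesn2, Trp53inp1, Btg2, Zmat3 and Eda2r kept their direction in all 15. No scaling moved the median of all genes by 0.1 on the log2 scale. No paired analysis was possible because the groups share only replicate number 5. With 3 libraries a group the 95% interval of Cdkn1a spans 0.952-fold to 1.81-fold, so changes inside it cannot be told from none.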
